A study of Mus musculus with 16 samples.

Results

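The genes described are the Toll-like receptors *Tlr1* to *Tlr9* and their adaptor *Myd88*, 10 of the 24984 genes in the count files. They were chosen by name as the receptors that sense microbial products, among them the DNA and RNA of a viral vector, and the rule used no measured value. RNA was sequenced from kidney and liver of aged female wild-type C57BL/6 mice, which received an AAV8 vector by tail vein injection at 24 months of age and whose tissues were collected 3 months later. The hairpin in the vector was directed against *Fos* (shFOS) or was a non-targeting control (shNT), and there were 4 libraries of each tissue and treatment, 16 in all. All mice had thus received vector, and mice without vector were not analysed here, so the comparisons below are between hairpins and between tissues and do not measure a response to the vector itself. AAV8 is known mainly for entering hepatocytes, and which cells took up the hairpin was not measured here.

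Toll-like receptors are transmembrane proteins that recognise conserved molecules of microbes and damaged cells. *Tlr1*, *Tlr2*, *Tlr4*, *Tlr5* and *Tlr6* act mainly at the cell surface on lipids and proteins, whereas *Tlr3*, *Tlr7*, *Tlr8* and *Tlr9* act in endosomes on nucleic acids, *Tlr3* on double-stranded RNA, *Tlr7* and *Tlr8* on single-stranded RNA and its breakdown products, and *Tlr9* on unmethylated CpG DNA. *Myd88* carries the signal of all of them except *Tlr3* to the IRAK kinases, TRAF6 and NF-κB, and it also serves the receptors of IL-1, IL-18 and IL-33. In kidney and liver the receptors are known from resident macrophages, which in liver are the Kupffer cells, from dendritic and B cells, and some of them from endothelium and epithelium.

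The libraries held 14194543 to 15534665 reads on genes in kidney and 16652150 to 18300277 in liver, and a count of 0 in a library allows up to 3 reads, which is 0.156 to 0.230 CPM (read counts scaled to the library's depth), a limit that covers counting error only. All 10 genes passed the filter on low counts in both tissues. Most of the receptors lay low among the genes tested. The lowest were *Tlr9* in liver, with its mean at percentile 1.35 of the genes tested there, and *Tlr5* in kidney at percentile 3.79. *Tlr3* stood at percentile 49.8 in kidney and 38.2 in liver, and *Myd88* at percentile 53.1 in kidney and 59.0 in liver. The fewest reads were the 5 of *Tlr9* in 1 kidney and 1 liver library, so its values carry wide counting error. The summed level of 6 kidney tubule markers was 11044 to 17181 CPM in kidney and 0.808 to 2.33 CPM in liver, and that of 6 hepatocyte markers was 43942 CPM at its lowest in liver and 681 CPM at its highest in kidney. *Fos*, the target of the hairpin and a subunit of the transcription factor AP-1, had 4.23 to 6.71 CPM in kidney shNT and 2.30 to 4.12 CPM in kidney shFOS, groups that did not overlap, and its log2 difference was -0.73 ± 0.25 (SE; edgeR adjusted p = 0.0955, DESeq2 adjusted p = 0.0421). In liver *Fos* overlapped between the groups, at 1.12 to 3.70 CPM in shNT and 1.38 to 2.76 CPM in shFOS.

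Single libraries stood out in these genes. Among the liver shNT libraries, replicate 3 held the highest of the 8 liver values for 6 of the 10 genes and replicate 1 the lowest for 7. Kidney shNT replicate 4 held the lowest of the 8 kidney values for 8 genes. Liver shNT replicate 4 stood apart in genes around the receptors, among them *Il1r1* and *Lbp*. The same libraries differed in leukocyte markers: the sum of 10 macrophage markers was 1454 CPM in liver shNT replicate 3 and 319 CPM in replicate 1, against 743 and 790 CPM in the other two, and it was 395 CPM in kidney shNT replicate 4 against 751 to 1101 CPM in the other kidney shNT libraries. In bulk tissue, fewer cells of a type and less RNA per cell cannot be told apart.

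The control libraries show which receptors each tissue contained. Levels in this paragraph were scaled within each tissue and are not compared between the tissues. In kidney shNT, levels per kilobase of merged exon (CPM per kb) ran from *Myd88* at 11.6 ± 1.05 (SD, n = 4) through *Tlr3* at 4.38 ± 0.745, *Tlr2* at 2.93 ± 0.751, *Tlr1* at 2.01 ± 0.711, *Tlr4* at 1.94 ± 0.201, *Tlr7* at 1.44 ± 0.568, *Tlr8* at 0.865 ± 0.366, *Tlr9* at 0.790 ± 0.607 and *Tlr6* at 0.419 ± 0.148 down to *Tlr5* at 0.212 ± 0.0341. *Myd88* was the one gene whose lowest library lay above the highest library of the next gene in the order, and every other pair of neighbours overlapped. Of *Tlr1* to *Tlr9*, *Tlr3* thus had the highest mean in the kidney controls, and its libraries overlapped those of *Tlr2*. In liver shNT, *Myd88* again stood alone at 9.24 ± 1.88 CPM per kb, and the receptors followed as *Tlr8* at 2.33 ± 1.75, *Tlr2* at 1.91 ± 0.868, *Tlr3* at 1.76 ± 0.398, *Tlr1* at 1.45 ± 0.960, *Tlr7* at 1.14 ± 0.857, *Tlr4* at 0.838 ± 0.396, *Tlr5* at 0.413 ± 0.226, *Tlr6* at 0.305 ± 0.0907 and *Tlr9* at 0.190 ± 0.122, with overlap between all neighbours below *Myd88*. *Tlr1* and *Tlr6* are neighbouring genes of similar sequence on chromosome 5, and reads that fit both could not be assigned with certainty.

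**Figure D1:**
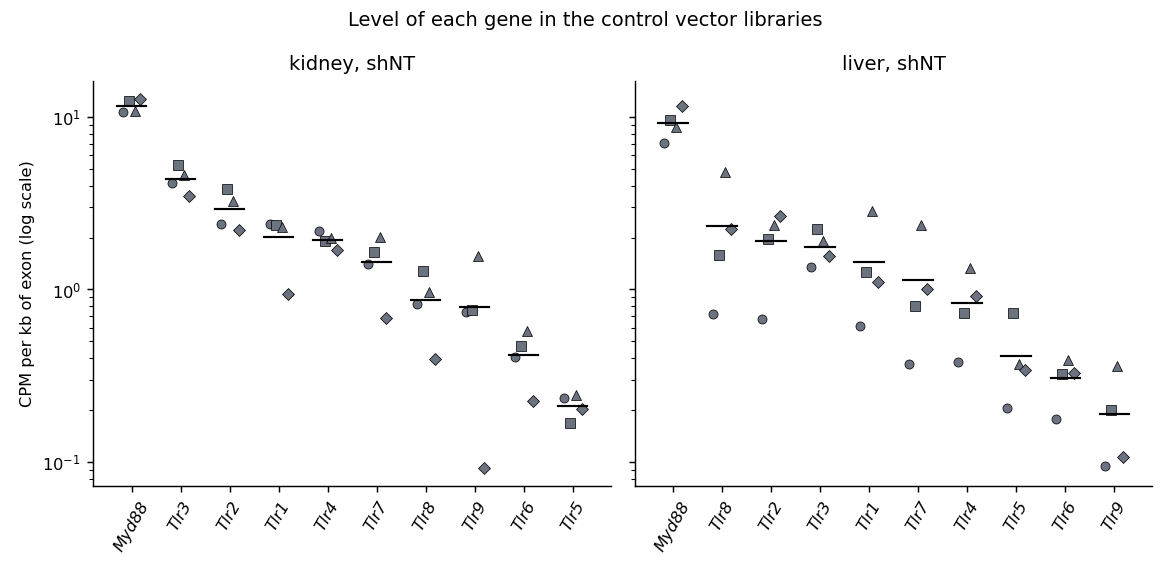
Level of each gene in CPM per kb of exon (log axis) in the 4 shNT libraries of kidney (left) and liver (right), with a bar at the mean and a symbol per replicate as in the plot of CPM by library (circle 1, square 2, triangle 3, diamond 4). Values were scaled within each tissue, so heights are not compared between the panels. *Myd88* stands clear of the receptors in both tissues, of the 9 receptors shown *Tlr3* has the highest mean in kidney and *Tlr8* in liver, and kidney replicate 4 and liver replicate 1 lie lowest for most genes.

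Tissue separated 3 of the 10 genes, all 3 of them higher in liver. Values in this comparison are CPM scaled over both tissues, and the test was edgeR's quasi-likelihood test in one fit of 16 libraries, in which 9976 of 15421 genes (64.7%) were called at an adjusted p under 0.05 and 30.2% were called higher in liver. A call between these tissues was thus common, and 3 of 10 lay below that share. *Tlr8* was 5.38-fold higher in liver (log2 2.43 ± 0.48 SE, adjusted p = 0.000334), with 1.03 to 3.19 CPM in the kidney libraries and 3.60 to 24.2 CPM in the liver libraries. *Tlr5*, the receptor for bacterial flagellin, was 3.85-fold higher (log2 1.94 ± 0.40, adjusted p = 0.000538), with 0.5633 to 0.8291 CPM in kidney and 1.39 to 4.96 CPM in liver. *Myd88* was 1.59-fold higher (log2 0.67 ± 0.13, adjusted p = 0.000287), with 19.3 to 23.6 CPM in kidney and 25.6 to 42.3 CPM in liver. For these genes the 4 kidney and 4 liver libraries did not overlap, and for the other 7 they did. The share of all genes without overlap between the tissues was not taken, so this count has no background beside it. *Tlr9* leaned to kidney, at 1.94 ± 1.49 CPM against 0.930 ± 0.597 CPM in liver (log2 -1.04 ± 0.63, adjusted p = 0.159). Scaling over both tissues lowered the kidney values and raised the liver values relative to scaling within each tissue. Scaled within each tissue, *Myd88* had means of 29.9 CPM in kidney shNT and 23.8 CPM in liver shNT, so its direction rested on the scaling. The means of *Tlr1*, *Tlr2*, *Tlr6* and *Tlr7* changed direction likewise, whereas *Tlr5* and *Tlr8* were higher in liver on both scales.

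*Tlr3* depended on the fit. Its log2 difference between liver and kidney was -0.32 ± 0.15 (adjusted p = 0.0811). With libraries of the same treatment and replicate number taken as a block across tissues, an alternative added after the data were seen, it was -0.33 and passed (edgeR adjusted p = 0.0325), so that 4 genes were called where 66.2% of all genes were. In the shFOS libraries, 5 of the 10 were called where 65.9% of all genes were: *Tlr5* and *Myd88* as in the controls and *Tlr3* (log2 -0.44), *Tlr4* (-0.99) and *Tlr9* (-1.51) lower in liver, whereas *Tlr8* was 0.69 higher and did not pass (adjusted p = 0.205). Without kidney shNT replicate 4, where *Tlr9* was lowest, 5 of the 10 were called in the controls (64.0% of all genes), the additions being *Tlr3* (-0.41) and *Tlr9* (-1.41).

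Upstream sequences are shown for *Tlr5*, *Tlr8* and *Tlr9*, the receptors that differed most between the tissues on the log2 scale and whose entry in the RefSeq promoter table (GRCm38.p6) lies wholly outside the annotated gene. *Tlr8* occupies chrX:167242696-167264329 on the minus strand next to its closest relative *Tlr7* at chrX:167304929-167330558, *Tlr5* lies at chr1:182954788-182976044 on the plus strand and *Tlr9* at chr9:106222598-106226883 on the plus strand (mm10). Each run is the 250 bases before the start site, 5′ to 3′ on the gene's strand, from chr1:182954538-182954787, chrX:167264330-167264579 and chr9:106222348-106222597 in that order, and capitals mark matches on either strand to the AP-1 letters TGANTCA, the PU box letters GAGGAA or the TATA box letters TATAAA.

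Tlr5: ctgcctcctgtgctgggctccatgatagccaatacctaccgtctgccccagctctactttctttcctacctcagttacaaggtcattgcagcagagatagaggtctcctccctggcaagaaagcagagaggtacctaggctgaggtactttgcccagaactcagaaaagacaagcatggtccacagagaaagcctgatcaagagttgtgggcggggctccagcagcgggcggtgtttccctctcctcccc

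Tlr8: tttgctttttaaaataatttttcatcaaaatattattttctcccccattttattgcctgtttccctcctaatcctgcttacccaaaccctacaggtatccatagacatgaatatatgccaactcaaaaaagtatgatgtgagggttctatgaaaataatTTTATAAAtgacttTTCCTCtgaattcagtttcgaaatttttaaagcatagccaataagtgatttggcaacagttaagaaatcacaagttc

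Tlr9: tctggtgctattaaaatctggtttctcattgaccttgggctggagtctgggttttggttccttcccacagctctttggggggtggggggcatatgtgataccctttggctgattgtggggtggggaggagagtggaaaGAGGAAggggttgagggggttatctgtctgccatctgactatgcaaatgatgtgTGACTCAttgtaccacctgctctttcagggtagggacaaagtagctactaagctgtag

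AP-1 is the factor to which Fos contributes, PU.1 is a factor of myeloid and B cells that binds the PU box, and the TATA box is bound by the basal machinery. *Tlr5* had no match in this window. *Tlr8* had a PU box match that began 77 bases before the start and overlapping TATA box matches that began 91 and 89 bases before it, on opposite strands. *Tlr9* had a PU box match that began 112 bases before the start and an AP-1 match that began 58 bases before it. Of the 10 promoter entries that the table held for 8 of the genes, 1 had the AP-1 letters, 3 the PU box and 3 the TATA box, and of all 32851 promoter windows of this length 6.75%, 23.3% and 12.4% did. A match is a description of letters and not a site that was measured.

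Between shFOS and shNT, none of the 10 genes was called in either tissue. In kidney edgeR called 0 of 14892 genes (0%), while an unadjusted p under 0.05 was found for 4747 (31.9%) and DESeq2 called 2732 (18.3%), none of them among the 10. In liver edgeR called 0 of 13144 genes (0%), 886 (6.74%) passed 0.05 without adjustment and DESeq2 called 38 (0.289%), again none of the 10. DESeq2 gave no adjusted p for *Tlr5* and *Tlr6* in kidney or for *Tlr6* and *Tlr9* in liver, so it could not call them. Unadjusted p-values under 0.05 went to 1 of the 10 genes in kidney, *Myd88*, and to 2 in liver, *Tlr8* and *Myd88*. The median log2 difference of the 10 was 0.07 in kidney and -0.35 in liver, beside 0.00 and -0.01 over all genes tested.

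**Figure D2:**
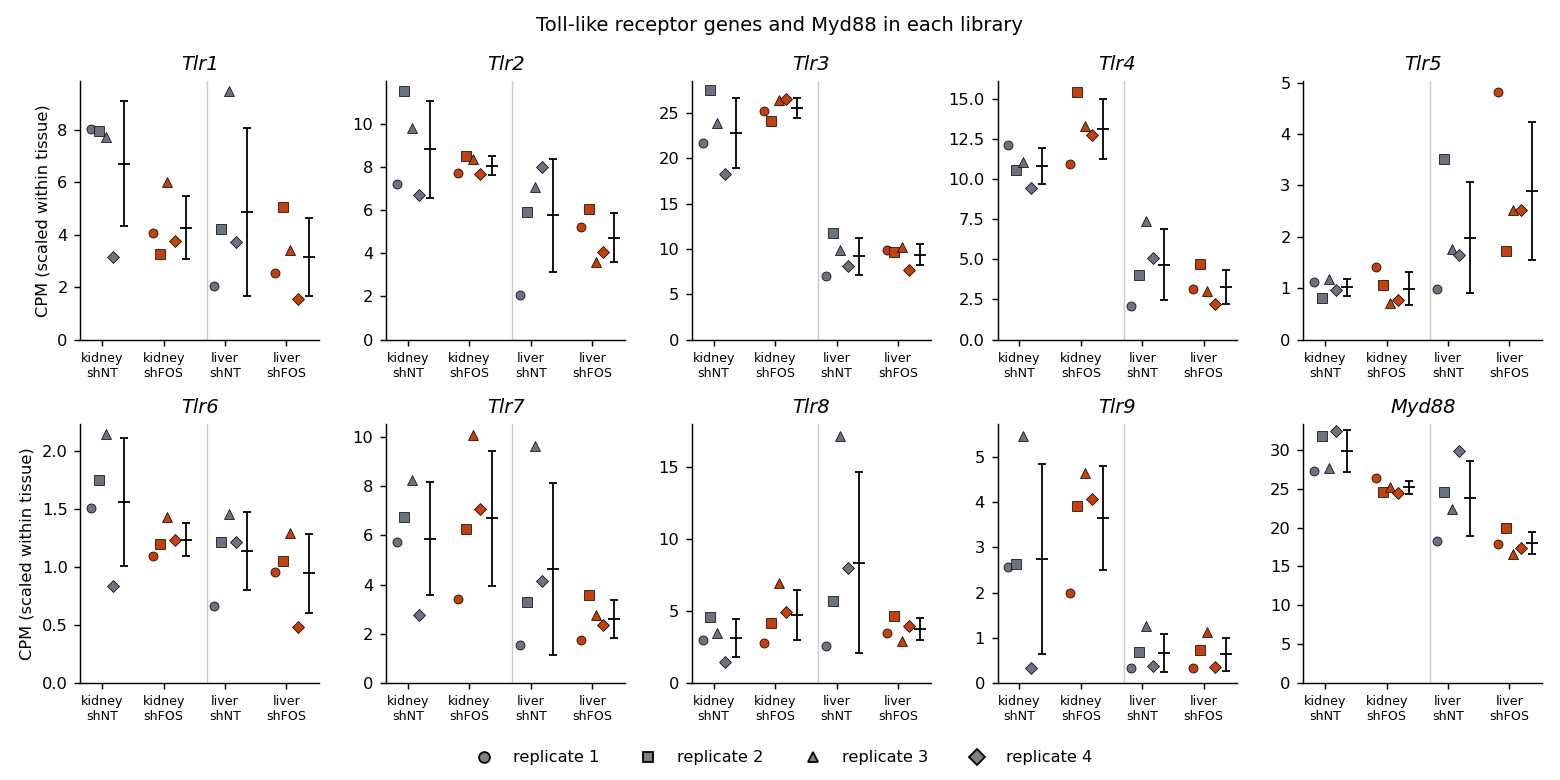
CPM scaled within each tissue for each gene in every library, with a symbol per replicate, shNT in grey and shFOS in orange, and the mean ± SD of each group beside its points (linear axes from 0, n = 4). *Myd88* in kidney is the one gene whose shNT and shFOS points do not overlap in a tissue, and the liver shNT points of *Tlr1*, *Tlr7* and *Tlr8* are spread by a high replicate 3.

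*Myd88* was lower with shFOS in both tissues without passing the adjusted test in either. Its kidney values, in CPM scaled within the tissue as in all comparisons of the hairpins, were 27.3, 31.8, 27.7 and 32.5 in shNT and 26.4, 24.7, 25.2 and 24.5 in shFOS. The groups did not overlap, as was the case for 17.2% of all genes tested in kidney. The log2 difference was -0.24 ± 0.089 (SE; edgeR p = 0.0218, adjusted p = 0.103), and the exact two-sided permutation test gave p = 0.0286, the smallest that 70 assignments allow. Of 20 such tests, 10 genes in 2 tissues, this was the 1 with an exact p under 0.05. Adjusted by Benjamini-Hochberg over the 20 tests, this exact p was 0.571. Without kidney shFOS replicate 1, *Myd88* was called (log2 -0.31, adjusted p = 0.0437) in a fit that called 27.5% of all genes, and it was the only one of the 10 called there. Corrected for GC content the difference was -0.17 (edgeR adjusted p = 0.213).

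In liver *Myd88* had 18.3, 24.6, 22.4 and 29.9 CPM in shNT and 18.0, 19.9, 16.7 and 17.4 CPM in shFOS. The groups overlapped through shNT replicate 1, with 3 of the 4 control libraries above every shFOS library. The log2 difference was -0.40 ± 0.15 (p = 0.0236, adjusted p = 0.714; exact permutation p = 0.0571). No liver gene of the 10 had separate groups, and 4.31% of all liver genes had. In the GENCODE annotation the exons of *Myd88* share 290 bases with *Acaa1a*, a gene of peroxisomal fatty acid oxidation on the opposite strand. Counting ignored strand and dropped ambiguous reads. If the annotation used for counting held the same overlap, which was not checked, reads from that stretch were not counted for either gene.

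The surface receptors did not separate the hairpins. *Tlr1*, which pairs with *Tlr2* to bind triacylated lipopeptides, had 8.02, 7.95, 7.75 and 3.16 CPM in kidney shNT and 4.05, 3.26, 6.01 and 3.76 CPM in kidney shFOS. The first 3 control libraries exceeded every shFOS library and replicate 4 lay below them all, so the groups overlapped (log2 -0.65 ± 0.32, edgeR adjusted p = 0.198). Without that library the difference was -0.89 (adjusted p = 0.0884). In liver *Tlr1* had 2.05, 4.21, 9.47 and 3.71 CPM in shNT and 2.53, 5.06, 3.41 and 1.56 CPM in shFOS, again with overlap (log2 -0.63 ± 0.49, adjusted p = 0.775). *Tlr6*, the other partner of *Tlr2*, was counted 13 to 33 times in kidney libraries and 8 to 28 times in liver libraries, with log2 differences of -0.34 ± 0.32 and -0.27 ± 0.37.

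*Tlr2*, the shared subunit of those pairs, had 6.70 to 11.5 CPM in kidney shNT and 7.68 to 8.51 CPM in kidney shFOS (log2 -0.13 ± 0.19, adjusted p = 0.671), so the shFOS libraries lay inside the range of the controls. *Tlr4*, the receptor for lipopolysaccharide, had 12.1, 10.6, 11.1 and 9.41 CPM in kidney shNT and 10.9, 15.4, 13.3 and 12.7 CPM in kidney shFOS (log2 0.28 ± 0.14, edgeR adjusted p = 0.207), and 3 of the 4 shFOS libraries exceeded every control. In liver it had 2.11, 4.04, 7.39 and 5.08 CPM in shNT and 3.14, 4.72, 2.99 and 2.21 CPM in shFOS (log2 -0.51 ± 0.37, adjusted p = 0.768). *Tlr5* had at most 1.41 CPM in any kidney library. In liver *Tlr5* had 0.990, 3.52, 1.77 and 1.64 CPM in shNT and 4.83, 1.72, 2.52 and 2.51 CPM in shFOS (log2 0.54 ± 0.43, adjusted p = 0.776). Its highest liver value, in shFOS replicate 1, carried much of that difference, which was 0.18 without the library.

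Among the endosomal receptors of nucleic acids, all 4 had positive log2 differences in kidney, with a median of 0.30, and 3 of 4 had negative ones in liver, with a median of -0.46, although none passed the adjusted test and *Tlr3* (-0.03) and *Tlr7* (-0.02) changed sign in kidney under the GC correction. *Tlr8* had 2.96, 4.58, 3.45 and 1.42 CPM in kidney shNT and 2.76, 4.12, 6.94 and 4.91 CPM in kidney shFOS (log2 0.59 ± 0.38, adjusted p = 0.315), with overlap. In liver it had 2.57, 5.65, 17.2 and 7.99 CPM in shNT and 3.42, 4.67, 2.88 and 3.95 CPM in shFOS. The control libraries other than replicate 1 exceeded every shFOS library, replicate 1 lay below them, and the log2 difference was -1.17 ± 0.49 (edgeR adjusted p = 0.732). Without shNT replicate 3 it was -0.54 (edgeR adjusted p = 0.708).

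*Tlr7* was highest and lowest in the same liver controls as *Tlr8*, replicates 3 and 1. It had 5.72, 6.74, 8.27 and 2.77 CPM in kidney shNT and 3.41, 6.25, 10.1 and 7.06 CPM in kidney shFOS (log2 0.19 ± 0.38, adjusted p = 0.764). In liver it had 1.52, 3.29, 9.63 and 4.13 CPM in shNT and 1.74, 3.56, 2.76 and 2.33 CPM in shFOS (log2 -0.84 ± 0.50, adjusted p = 0.742), and without shNT replicate 3 the difference was -0.20. In both tissues the SD of the controls exceeded the distance between the group means.

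*Tlr9*, the receptor for CpG DNA, was the most variable of the 10 among the kidney controls, at 2.56, 2.63, 5.47 and 0.322 CPM in shNT against 1.99, 3.92, 4.65 and 4.07 CPM in shFOS. The difference of 0.41 ± 0.61 on the log2 scale (adjusted p = 0.673) fell to 0.04 without shNT replicate 4 and was 0.99 without replicate 3. In liver *Tlr9* had 5 to 24 reads per library and 0.660 ± 0.425 CPM in shNT against 0.633 ± 0.367 CPM in shFOS, and no difference was resolved (log2 -0.08 ± 0.54). *Tlr3*, which signals through *Ticam1* and not *Myd88*, had 21.7, 27.5, 23.8 and 18.2 CPM in kidney shNT and 25.2, 24.1, 26.4 and 26.5 CPM in kidney shFOS (log2 0.16 ± 0.13, adjusted p = 0.396), and 6.99 to 11.7 and 7.72 to 10.2 CPM in liver (log2 0.03 ± 0.18, adjusted p = 0.979). In the GENCODE annotation *Tlr3* shares 381 exon bases with the antisense gene *Gm45542*. Whether the annotation used for counting held that gene, so that reads there were likewise not assigned, was not checked.

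**Figure D3:**
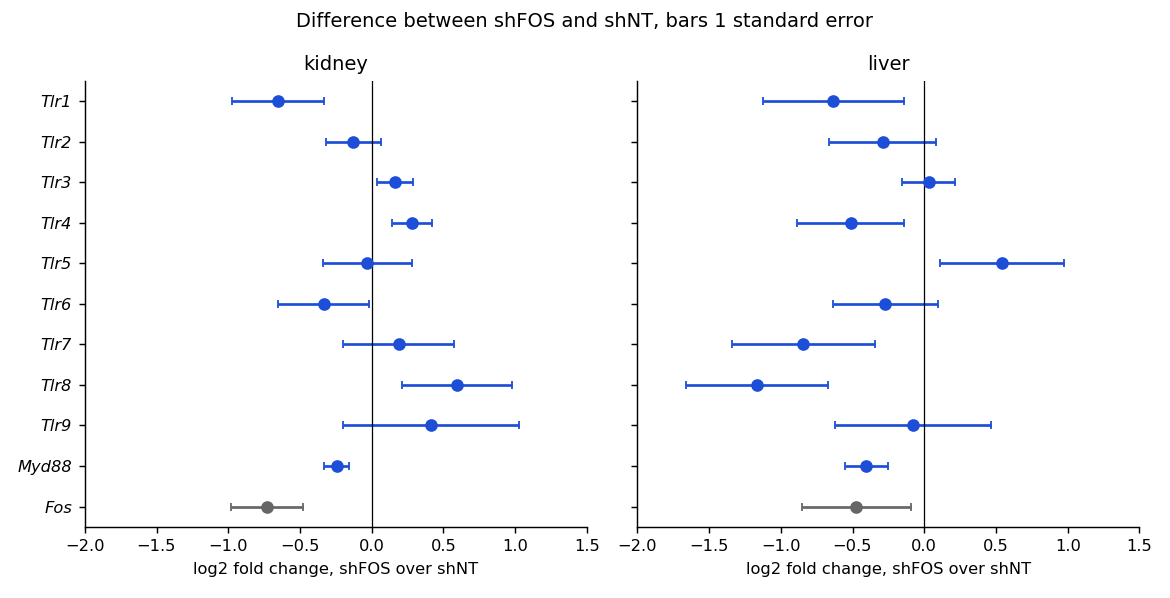
Log2 fold change of shFOS over shNT for each gene and for *Fos* in kidney (left) and liver (right), as points with bars of 1 standard error from edgeR (n = 4 per group). *Myd88* and *Fos* lie left of 0 in both tissues, *Tlr4*, *Tlr7*, *Tlr8* and *Tlr9* lie right of 0 in kidney and left of it in liver, and no gene passed the adjusted test.

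The difference between the tissues in their response to the hairpin was tested as an interaction. EdgeR called 0 of 15421 genes (0%), 2482 (16.1%) passed 0.05 without adjustment, and DESeq2 called 341 (2.21%), none of them among the 10. *Tlr5* was among the genes to which DESeq2 gave no adjusted p there. *Tlr8* had the largest interaction of the 10, with a log2 value in liver 1.74 ± 0.66 (SE) below that in kidney, coded as liver minus kidney (-1.74, edgeR adjusted p = 0.225). Without liver shNT replicate 3 it was -1.12 (edgeR adjusted p = 0.334). For *Tlr7* it was -1.01 ± 0.66, for *Tlr4* -0.78 ± 0.41, and for *Myd88* -0.14 ± 0.18, each with an adjusted p above that of *Tlr8*.

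Most receptors varied with macrophage markers, and several with endothelial markers, across libraries. Deviations of log2 CPM from the mean of each tissue and treatment group, over 16 libraries, gave Pearson's r with the sum of 10 macrophage markers (*Adgre1*, *Cd68*, *Csf1r*, *Lyz2*, *Mrc1*, *C1qa*, *C1qb*, *C1qc*, *Aif1* and *Fcgr1*) of 0.93 for *Tlr8*, 0.86 for *Tlr2*, 0.86 for *Tlr7*, 0.85 for *Tlr4*, 0.84 for *Tlr1*, 0.73 for *Tlr6*, 0.68 for *Tlr3* and 0.65 for *Tlr9*. *Myd88* (0.35) and *Tlr5* (0.15) followed these markers least. *Tlr9* had its highest r, 0.85, with the sum of 6 B cell markers. The sum of 6 endothelial markers gave r of 0.79 for *Tlr4*, 0.74 for *Tlr1*, 0.73 for *Tlr6*, 0.72 for *Tlr2*, 0.60 for *Tlr8* and 0.55 for *Tlr7*, so the macrophage list was not the only one these receptors varied with. These values describe libraries that share their scaling factor and depth between the genes compared, and they carry no test. Taken by tissue, *Myd88* had r = -0.37 with macrophage markers in kidney and 0.57 in liver.

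**Figure D4:**
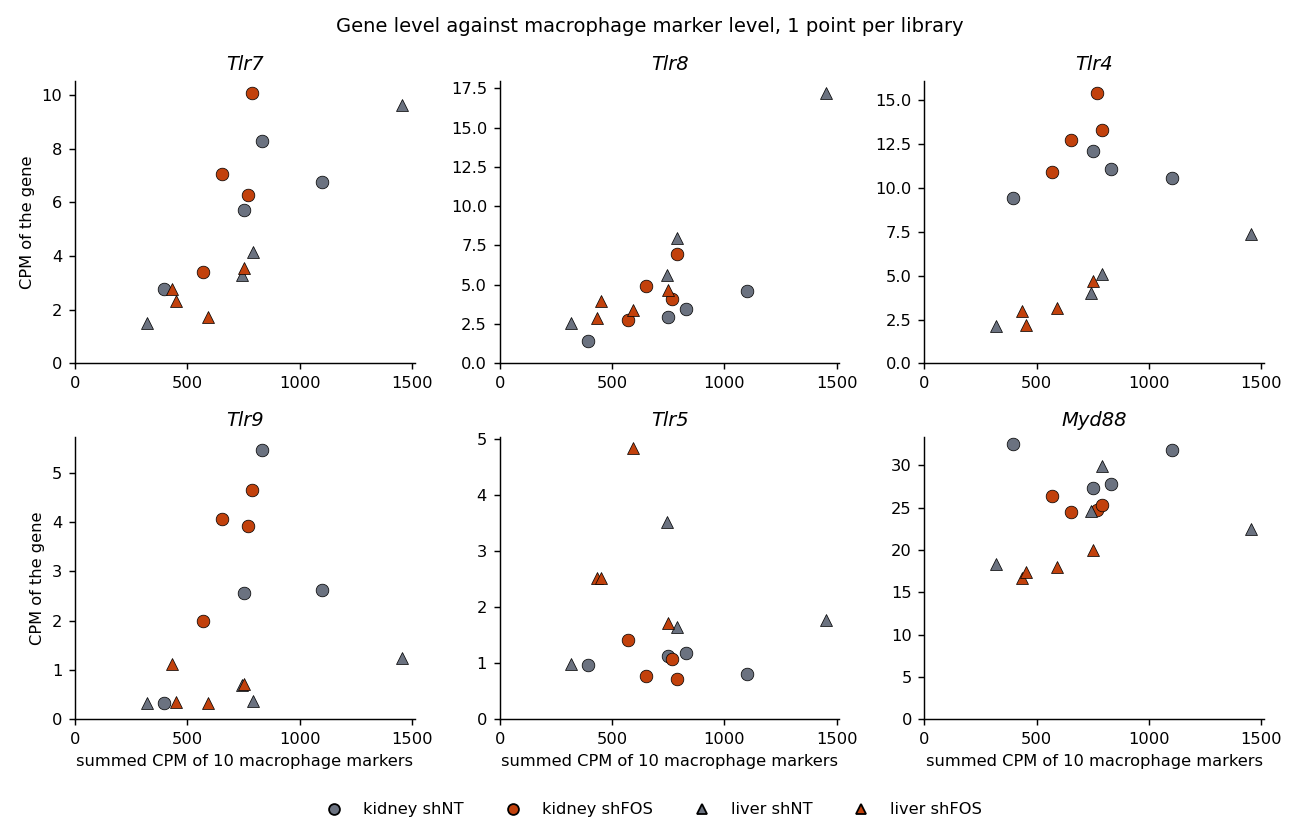
CPM of 6 of the genes against the summed CPM of 10 macrophage markers, 1 point per library (circles kidney, triangles liver, grey shNT, orange shFOS; linear axes from 0). In liver *Tlr7*, *Tlr8* and *Tlr4* are higher where the markers are higher, from shNT replicate 1 at 319 CPM to replicate 3 at 1454 CPM. In kidney *Tlr7*, *Tlr8* and *Tlr9* broadly are so, *Tlr4* is less so, and *Tlr5* and *Myd88* do not follow the markers.

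In the comparison of hairpins, macrophage markers and most receptors leaned lower in liver, whereas the receptors were mixed in kidney. In liver all 10 macrophage markers and all 5 Kupffer cell markers had negative log2 differences, with medians of -0.63 and -0.82, and none was called. This was not particular to them: all 5 neutrophil markers tested were lower (median -1.31), as were 5 of 6 B cell and 5 of 6 conventional dendritic cell markers. T cell markers were higher in 4 of 6 and hepatocyte markers in 5 of 6. The macrophage sum ranged from 319 to 1454 CPM in liver shNT and from 433 to 751 CPM in liver shFOS, and the Kupffer cell sum from 147 to 859 CPM and from 176 to 343 CPM. In kidney 8 of 10 macrophage markers were lower, with sums of 395 to 1101 CPM in shNT and 569 to 789 CPM in shFOS. B cell markers had sums of 7.28 to 179 CPM in kidney shNT and 12.0 to 27.0 CPM in kidney shFOS, and the highest of them was in shNT replicate 3, the library with the highest *Tlr9*. All 6 B cell markers were lower in kidney shFOS (median log2 -1.72), whereas *Tlr9* was higher there (log2 0.41). The 4 plasmacytoid dendritic cell markers, of a cell type known for *Tlr7* and *Tlr9*, summed to 1.22 to 2.63 CPM in kidney shNT and 2.76 to 7.08 CPM in kidney shFOS without overlap, on 2 genes that passed the filter. Sums of 3 further lists did not overlap in kidney and were higher in shFOS. Of all single genes tested in kidney 17.2% did not overlap, and no such share was taken for sums of genes. The 6 endothelial markers had 268 to 349 CPM in shNT and 395 to 455 CPM in shFOS, the 4 plasma cell markers 17.9 to 166 CPM and 190 to 301 CPM, and the 6 tubule markers 11044 to 14465 CPM and 14905 to 17181 CPM. By gene, all 6 endothelial markers and 4 of 6 tubule markers were higher in shFOS. Of the 3 plasma cell markers tested, 1 was higher and 2 were lower (median log2 -0.01), so that sum does not describe its list. No marker on these lists was at 0 in all 8 libraries of a tissue. The part of these markers in the values of the receptors was not tested.

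Set against macrophage marker reads, the spread of the controls from the lowest to the highest library narrowed for some genes and widened for others, narrowing for 5 of the 10 in kidney and 7 in liver. *Tlr8* in liver shNT spanned 6.68-fold from the lowest to the highest library in CPM and 1.55-fold per macrophage marker read, and *Tlr7* spanned 6.35-fold and 1.496-fold. *Myd88* went the other way, from 1.64-fold to 3.72-fold in liver and from 1.19-fold to 2.85-fold in kidney, as did *Tlr3*, *Tlr5* and, in kidney, *Tlr2* and *Tlr4*. In kidney, *Tlr8* had 3.59 to 4.16 reads per 1000 macrophage marker reads in shNT and 4.86 to 8.80 in shFOS, so that the groups did not overlap on this scale, as was the case for 3.13% of all genes tested in kidney. In liver its ratio was 7.61 to 11.8 in shNT and 5.78 to 8.76 in shFOS, with overlap, and no gene of the 10 had separate groups there (0.571% of all liver genes). This ratio was taken after the values had been seen.

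The genes whose deviations were most like those of the nucleic acid receptors were sought among 12727 genes that passed the filter in both tissues, over 16 libraries. For *Tlr7* they were *Bcl2a1b* (r = 0.95), the leukocyte tetraspanin gene *Cd53* (0.94) and *Tlr8* (0.94). For *Tlr8* they were *Lrrc25* (0.96), *Tbxas1*, which encodes thromboxane synthase (0.95), and the C-type lectin gene *Clec4a1* (0.94). For *Tlr9* they were *Prdm1*, the regulator of plasma cell differentiation (0.96), the lymphocyte co-receptor gene *Btla* (0.96) and *Il16* (0.96). For *Tlr3* they were *H2-M3*, a nonclassical MHC class I gene (0.93), *Pstpip1* (0.93) and *Gtse1* (0.91). For *Myd88* they were *Tmem159* (0.93), *Pbxip1* (0.93) and *Rab11fip5* (0.91), the last with r = 0.32 in kidney and 0.99 in liver.

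The mouse has 3 further receptors, *Tlr11*, *Tlr12* and *Tlr13*. *Tlr12*, a receptor for profilin of parasites, had 13.7 to 27.9 CPM in kidney shNT and 23.3 to 34.4 CPM in kidney shFOS. Its mean level in kidney shNT, 5.11 CPM per kb scaled over both tissues, lay above the 3.10 CPM per kb of *Tlr3*, and it was 2.26-fold lower in liver shNT than in kidney shNT (log2 -1.18 ± 0.34, adjusted p = 0.00594). *Tlr13*, a receptor for bacterial ribosomal RNA, was 2.66-fold higher in liver shNT (log2 1.41 ± 0.41, adjusted p = 0.00688). In liver it had 2.11, 4.73, 11.9 and 10.7 CPM in shNT and 4.71, 5.06, 2.82 and 2.57 CPM in shFOS (log2 -0.96 ± 0.50, adjusted p = 0.735), the same low replicate 1 and high replicate 3 as *Tlr8*. *Tlr11* passed the filter in kidney alone and had 0 reads in kidney shNT replicate 4, which allows up to 0.193 CPM.

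Around the receptors, 83 genes of the pathway were examined as 9 lists. In kidney 80 were tested, 38 with positive and 42 with negative log2 differences, none was called by edgeR, and 7 of the positive and 9 of the negative had an unadjusted p under 0.05 (20.0% in all, beside 31.9% of all genes). In liver 76 were tested, 23 positive and 53 negative, none was called, and 1 of the positive and 5 of the negative had an unadjusted p under 0.05 (7.89% in all, beside 6.74% of all genes). DESeq2 called 11 of the 80 in kidney (13.8%, beside 18.3% of all genes) and 0 in liver. In kidney the share of pathway genes with a low p-value was thus below that of all genes tested.

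For the delivery of the endosomal receptors, the kidney values of the chaperone *Hsp90b1*, which folds Toll-like receptors, were 444 to 689 CPM in shNT and 662 to 955 CPM in shFOS (log2 0.54 ± 0.17, edgeR adjusted p = 0.0781, DESeq2 adjusted p = 0.0149). Its kidney difference was 0.37 with GC correction, and its liver difference was -0.20 ± 0.16. Of the 8 genes of this list, 6 were positive in kidney and 2 in liver. *Ctsb*, a lysosomal protease and the gene of the list with the highest CPM in both tissues, differed by 0.06 ± 0.13 in kidney and 0.03 ± 0.21 in liver. *Slc15a4*, a lysosomal transporter that *Tlr7* and *Tlr9* need, had 14.3 to 22.1 CPM in liver shNT and 21.9 to 28.7 CPM in liver shFOS (log2 0.34 ± 0.16, adjusted p = 0.734).

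Of the adaptors beside *Myd88*, 4 of 5 were positive in kidney and 5 of 5 negative in liver. *Ticam1*, the adaptor of *Tlr3*, differed by 0.15 ± 0.094 in kidney, and *Pik3ap1*, an adaptor that links the receptors to PI3-kinase, by -0.23 ± 0.19 in liver. Co-receptors were negative in 4 of 6 in kidney and 6 of 6 in liver. *Cd36*, a scavenger receptor and co-receptor of *Tlr2* and *Tlr6*, had 154 to 174 CPM in liver shNT and 83.6 to 136 CPM in liver shFOS without overlap (log2 -0.49 ± 0.16, adjusted p = 0.714), and in kidney it differed by 0.39 ± 0.21. *Lbp*, the plasma protein that passes lipopolysaccharide to *Tlr4*, had 143, 251, 181 and 581 CPM in liver shNT and 172 to 213 CPM in liver shFOS.

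Downstream of *Myd88*, 11 of 19 kinases, ligases and transcription factors were positive in kidney and 7 of 19 in liver. DESeq2 called 1 of the 19 higher and 3 lower in kidney, where it called 18.3% of all genes. *Tab1*, a subunit of the TAK1 kinase complex, had 27.8 to 33.0 CPM in kidney shNT and 17.6 to 23.9 CPM in kidney shFOS, groups that did not overlap (log2 -0.57 ± 0.11, edgeR adjusted p = 0.0660, DESeq2 adjusted p = 0.00183). Corrected for GC content, the kidney difference of *Tab1* was -0.37. Its partner *Tab2*, the gene of this list with the highest CPM, differed by 0.18 ± 0.12 in kidney and -0.13 ± 0.12 in liver. *Traf6*, the ubiquitin ligase that links *Myd88* to TAK1, differed by -0.29 ± 0.13 in liver (adjusted p = 0.734). Among negative regulators, *Zc3h12a*, which encodes the ribonuclease Regnase-1 that degrades cytokine mRNAs, had 11.1 to 13.9 CPM in kidney shNT and 5.76 to 8.10 CPM in kidney shFOS without overlap (log2 -0.79 ± 0.15, edgeR adjusted p = 0.0660, DESeq2 adjusted p = 0.000565), and in liver it differed by -0.72 ± 0.26 (edgeR adjusted p = 0.714). *Tollip* differed by 0.26 ± 0.093 in kidney and *Nfkbia* by -0.02 ± 0.17 in liver.

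Of 14 tested genes known to be induced by Toll-like receptors, 9 were negative in kidney, with a median of -0.33, and 6 of 11 in liver, with a median of -0.35. In kidney 3 of the 14 had an unadjusted p under 0.05 and the same 3 were called by DESeq2, all lower, beside 31.9% and 18.3% of all genes, so the share was no larger than the background by p and near it by DESeq2. *Nfkbiz*, an NF-κB cofactor induced by *Myd88*, had 28.0, 30.7, 25.2 and 42.7 CPM in kidney shNT and 21.5, 12.04, 14.02 and 13.2 CPM in kidney shFOS without overlap (log2 -1.06 ± 0.22, edgeR adjusted p = 0.0660, DESeq2 adjusted p = 0.00116). The others were *Cxcl1* (log2 -1.25 ± 0.28, DESeq2 adjusted p = 0.00621) and *Il1b* (-1.05 ± 0.32, DESeq2 adjusted p = 0.0185), which encode a neutrophil chemokine and interleukin-1β.

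In liver shNT replicate 4 held by far the highest values of *Cxcl1* and *Il1r1*. *Cxcl1* had 19.1, 22.5, 10.98 and 175.5 CPM in liver shNT and 4.77 to 21.3 CPM in liver shFOS (log2 -2.17 ± 0.90, adjusted p = 0.731), and *Il1r1*, the receptor of IL-1 that uses *Myd88*, had 36.9, 29.8, 37.3 and 553 CPM in shNT and 29.1 to 45.5 CPM in shFOS (log2 -2.27 ± 0.97, adjusted p = 0.733). *Il1b* was not high there, at 4.49, 11.3, 16.8 and 5.29 CPM in liver shNT (edgeR adjusted p = 0.734). *Myd88* had its highest liver value in replicate 4, and without it its liver difference was -0.29 (edgeR adjusted p = 0.775). The neutrophil markers summed to 103 CPM there against at most 26.6 CPM in the other liver controls, and the hepatocyte markers to 43942 CPM against 119310 CPM or more. Their part in these values was not tested.

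Of the receptors that share *Myd88* with the Toll-like family, *Il18rap*, a subunit of the IL-18 receptor, had 2.97 to 4.38 CPM in kidney shNT and 1.61 to 2.39 CPM in kidney shFOS without overlap (log2 -0.82 ± 0.24, edgeR adjusted p = 0.0722, DESeq2 adjusted p = 0.0276). *Il33*, a cytokine of the family, differed by 0.43 ± 0.17 in kidney (edgeR adjusted p = 0.128) and *Il1a* by -0.57 ± 0.24 in liver (edgeR adjusted p = 0.733). Of the cytosolic sensors of nucleic acids, which detect viral RNA and DNA outside endosomes, 7 of 9 were negative in kidney and 4 of 9 in liver. *Ifih1*, the sensor of long double-stranded RNA, differed by 0.54 ± 0.22 in kidney (edgeR adjusted p = 0.131), *Dhx58*, its regulator, by 0.65 ± 0.29 in liver (edgeR adjusted p = 0.734), and *Mavs*, their adaptor, by -0.09 ± 0.094 in kidney and 0.23 ± 0.19 in liver.

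**Figure D5:**
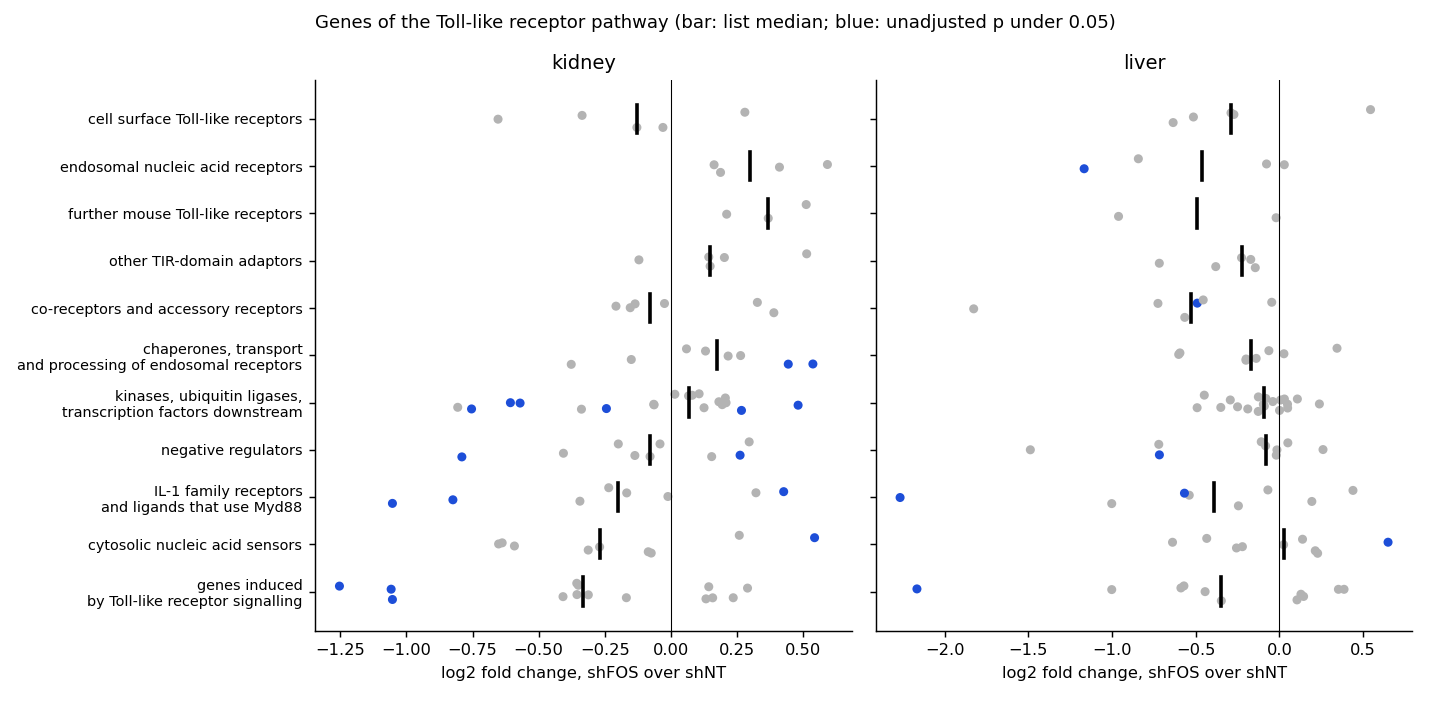
Log2 fold change of shFOS over shNT for each tested gene of the receptors and of 9 pathway lists in kidney (left) and liver (right), 1 point per gene, with a bar at the list median and blue for an unadjusted p under 0.05. Genes induced by the receptors include the lowest kidney values, at -1.25 for *Cxcl1*, the endosomal receptors lie right of 0 in kidney, and no gene passed the adjusted edgeR test.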

How the data were processed

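RNA-seq was measured in 16 libraries of kidney and liver from aged mice given AAV8 with a *Fos* or a non-targeting hairpin, and groups were taken from the sample titles. The authors trimmed reads with Trimmomatic 0.39, aligned them to mm10 with HISAT2 2.2.1 and counted them with HTSeq 0.12.4 without regard to strand, and the deposited files hold raw counts per gene symbol. The 5 summary lines were left out (13.4% to 26.7% of reads on no gene, 1.84% to 2.64% ambiguous). GENCODE M21 supplied positions, exon lengths and GC content for 98.4% of symbols.

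Each tissue was fitted alone with edgeR 4.0.16 in R 4.3.3 (filterByExpr, TMM, robust quasi-likelihood, Benjamini-Hochberg over all genes, calls at adjusted p under 0.05), and the tissue contrast and the interaction came from one fit of 16 libraries. The model was tested on simulated counts first. DESeq2 1.42.0 was an alternative. Log2 CPM used a pseudocount of 0.1, and each gene's groups were also set against each other in a two-sided exact permutation test of all 70 assignments. CPM per kb divides by merged exon length. Other alternatives were DESeq2 size factors, no filter, a mean of at least 10 counts, a fold change above 2 or below 0.5, replicate number as a block, GC correction by lowess (span 0.3), the newer dispersion, one fit of both tissues, and each library left out.

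Titles number the replicates alike in each group. Libraries of kidney and liver with the same number deviated together in shNT (r = 0.119 to 0.401) and less so in shFOS (0.0428 to 0.155), whereas shNT and shFOS libraries of the same number did not (-0.261 to 0.119). No source used here says which tissues came from the same mouse, so p-values measure the spread between these libraries. Replicates differed by more than counting noise (chi-square per degree of freedom at least 7.17). Genes named are the 10, *Fos*, from each pathway list the smallest p and the highest CPM in each tissue, and the 3 genes most like *Tlr3*, *Tlr7*, *Tlr8*, *Tlr9* and *Myd88*; *Cxcl1* and *Il1b* in kidney and *Il1r1* beside them were named after their values were seen. The genes, lists and tests were chosen with earlier results of these data known.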

Additional observations from a re-analysis of the deposited data

Results flagged for a closer look

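*Tlr1* in kidney shNT replicate 4, at 3.16 CPM, lay far below the other 3 libraries of its group (7.75 to 8.02 CPM), with a gap of 0.945 of the group's range, above Dixon's 95% critical value. Of 44 groups of 4 tested (the 10 genes and *Fos* in each tissue and treatment), this was the 1 so marked, where chance marks about 5%. The same library had the lowest kidney value for 8 of the 10 genes and the lowest macrophage, T cell and plasma cell marker sums among the kidney libraries (395, 5.54 and 17.9 CPM). Its endothelial and tubule sums were also the lowest there (268 and 11044 CPM), whereas its neutrophil and hepatocyte sums were the highest (24.9 and 681 CPM). The part of these markers in the value was not tested.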

How the results depend on the processing

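Of the 10 genes, 0 were called between hairpins in kidney, in liver and in the interaction under the settings tried, except 1 (*Myd88*) in kidney without shFOS replicate 1 (0 to 1 over the libraries left out). Between liver and kidney in shNT, 3 genes were called, 5 in the shFOS libraries, 3 to 5 over the libraries left out, and 2 at a fold change above 2 or below 0.5, where *Myd88* (1.59-fold) was no longer called. With the replicate number as a block within tissues, 0, 0 and 3 genes were called in kidney, liver and the tissue contrast, and with the block and GC correction together again 0, 0 and 3; the numbers shared by shNT and shFOS did not pair libraries, and no other call among the 10 changed than that of *Tlr3* across tissues. Of the 20 exact permutation tests, 1 had p under 0.05, and 0 to 3 did over the libraries left out (3 without liver shNT replicate 1). The order by CPM per kb kept 16 of 20 ranks with the longest transcript as length.

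Log2 values that changed sign were small or rested on single libraries. In kidney, *Tlr3* was -0.03 with GC correction and -0.01 with the block as well, and *Tlr7* was -0.02 with GC correction. Over the libraries left out, kidney values ran from -0.24 to 0.02 for *Tlr2*, from -0.29 to 0.10 for *Tlr5* and from -0.08 to 0.40 for *Tlr7*, and liver values from -0.09 to 0.16 for *Tlr3* and from -0.50 to 0.44 for *Tlr9*. The interaction of *Tlr3* was 0.04 with GC correction, with or without the block, and over the libraries left out it ran from -0.26 to 0.02 for *Tlr3*, from -0.30 to 0.58 for *Tlr1*, from -0.43 to 0.05 for *Tlr2*, from -0.15 to 0.29 for *Tlr6* and from -1.09 to 0.04 for *Tlr9*. Between tissues, *Tlr7* was -0.35 in the shFOS libraries, and without a library *Tlr1* ran from -0.01 to 0.79 and *Tlr4* from -0.52 to 0.03. The causes were not tested.

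Over all genes, edgeR called 0 in kidney against 3 without the filter, 994 in one fit of both tissues, 2732 by DESeq2, 3 without shNT replicate 4 and 4126 without shFOS replicate 1. In liver it called 0 against 38 by DESeq2, and in the interaction 0 against 341 by DESeq2, 1 without liver shFOS replicate 2 and 1246 without kidney shFOS replicate 1. GC correction moved the median log2 value of all genes between tissues from -0.05 to 0.11, and *Tlr5*, *Tlr8* and *Myd88* stayed called. With 13 to 33 reads per library for *Tlr6* in kidney and 5 to 24 for *Tlr9* in liver, counting error was wide. Their log2 differences between hairpins were -0.34 ± 0.32 and -0.08 ± 0.54 (SE), which resolved no difference. The smallest difference that could be resolved was not computed.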
